A study of Mus musculus with 2 samples.

Results

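Cytosolic ribosomal protein genes were examined in the islet cells of control C57BL/6J mice. A gene was a member if it had a row in both count tables and a symbol made of Rpl or Rps and a number, with or without a closing letter, or the symbol Rpsa. Rows named as pseudogenes (-ps) and the Rps6k kinases were left out. This gave 84 members among 27729 genes with a row in both tables. GENCODE M21 lists 79 of them as protein-coding and 5 as pseudogenes, namely Rps4l, Rpl32l, Rpl6l, Rps3a2 and Rps3a3. The pattern misses 7 genes that are described separately as other ribosomal proteins, among them Rplp0, Rplp1, Rplp2, Rpl36al, Fau and Rack1.

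The islets came from mice aged 8 weeks and were profiled with RevGel-seq, in which each cell is bound to a barcoded bead, held in a reversible gel and lysed, so that its RNA is counted under its own barcode. The 2 libraries, called library 1 and library 2, are technical replicates of one islet preparation, each loaded with 10000 cells. Every error and p-value given here therefore measures the spread between preparations of the same cells and holds no difference between animals. The values are unique molecular identifiers (UMIs), each standing for 1 captured transcript.

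Ribosomal proteins and ribosomal RNA form the small and large subunits of the ribosome, which translates mRNA into protein. The genes are needed in every cell, and their mRNAs are among the most abundant. Many of these mRNAs start with a run of pyrimidines, the 5′ terminal oligopyrimidine or TOP motif, through which the mTOR pathway sets how strongly they are translated. Endocrine islet cells make large amounts of 1 secreted hormone, so hormone mRNA takes up much of their captured RNA.

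Library 1 held 735 cells and 15931154 UMIs, and library 2 held 748 cells and 17440292 UMIs, with 0 shared barcodes. Cells were grouped by which of insulin (Ins1 and Ins2 together), Gcg, Sst and Ppy reached 1.0% of their UMIs, and the 5 hormone genes were then removed before scaling. Libraries 1 and 2 held 182 and 190 insulin only cells, 182 and 174 Gcg only cells, 35 and 23 Sst only cells, and 54 and 68 Ppy only cells. There were also 65 and 86 cells with Gcg and Ppy, 77 and 71 cells with Sst and Ppy, and 91 and 92 cells with no hormone. The other 93 cells fell into combinations too small to be fitted. Of the markers fixed for each type, 6 of 6 beta cell markers were highest in the insulin only group in both libraries, 5 of 7 alpha cell markers in Gcg only, 4 of 5 delta cell markers in Sst only and 2 of 4 gamma cell markers in Ppy only. The gamma cell markers thus fit their group least well, and the groups are called by their hormones.

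The sequence at the start of these genes is shown first, because it is the feature by which ribosomal protein mRNAs are known. RefSeq promoters (GRCm38.p6) were matched by symbol for 61 of the 84 members, with 73 start sites. An unbroken run of at least 8 pyrimidines (C or T), on the gene's strand, that covered the annotated first base or began within 5 bases of it was present at 21 of the 73 starts (28.8%). The same run was present at 2074 of 32851 promoters in the whole table (6.31%). The windows below run from 10 bases before the annotated first base to the 15th base of the transcript. They are given for some of the members described later, with the longest pyrimidine run at the start in capitals. The first 7 were picked for a long run and the last 4 for a short one, which is the more common case.
Rpl13a, chr7:45128731-45128755, minus strand: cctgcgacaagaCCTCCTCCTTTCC
Rpl38, chr11:114668570-114668594, plus strand: aagcctcgTTCTTTCCCCgttctct
Rpl35a, chr16:33056472-33056496, plus strand: gcttgCCTTCCTCTTTCCgccatct
Rps24, chr14:24490668-24490692, plus strand: gctggggTCCTTCCTTgcgcgttga
Rps18, chr17:33955651-33955675, minus strand: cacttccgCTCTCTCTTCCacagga
Rps9, chr7:3704031-3704055, plus strand: cttgTCTCTCTTTgtctcgggcctg
Rpl22l1, chr3:28805498-28805522, plus strand: gcgcaagcccgTTCTCTTCCCacgg
Rpl7l1, chr17:46782642-46782666, minus strand: gctgcgcaagcgcagTagctgaagc
Rps13, chr7:116334176-116334200, minus strand: caaacgTCggtgagtggcgtcactt
Rpl4, chr9:64173377-64173401, plus strand: tttcctgtgggagCagccgggtaga
Rpl5, chr5:107900518-107900542, plus strand: cgtcgCTTgcgtgctggtggtgcta
The run of Rpl13a goes on past the printed window. Rpl35a has other annotated starts with runs of 4 bases and 1 base, and Rps24 has another with a run of 2. Rpl7l1, a relative of Rpl7 that sits outside the usual set, has no run longer than 1 base at this start. A run in these letters is a description of the annotated start and not a measured start site.

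The members together held 472729 UMIs, or 1.92% of all UMIs outside the hormone genes. Their summed share differed more between insulin only and Gcg only cells than between libraries. In insulin only cells they made up 1.30% of hormone-free UMIs in library 1 and 1.31% in library 2 (mean 1.31% ± 0.00678, SD, n = 2). In Gcg only cells the share was 2.27% and 2.36% (2.32% ± 0.0641), which is 1.74 times and 1.80 times the insulin only share of the same library. Both Gcg only values therefore lay above every value of the other groups with 1 hormone.

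Sst only cells had 1.65% and 1.51% (1.58% ± 0.0964), and Ppy only cells had 1.48% and 1.44% (1.46% ± 0.0328). These 2 groups lay just above insulin only cells and did not overlap with each other, although the lower Sst only value was within 0.0964 percentage points, 1 SD of that group, of both Ppy only values. Cells with Gcg and Ppy had 2.08% and 2.22%, close to but below Gcg only cells in both libraries. Cells with Sst and Ppy had 1.59% and 1.68%, which overlapped with Sst only cells. The highest shares were those of cells with no hormone, at 2.85% and 2.75% (2.80% ± 0.0706). With 2 values against 2, the smallest two-sided p of an exact permutation test is 0.33, so the shares are described by their overlap and the genes are tested in 1 fit across all genes.

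**Figure D1:**
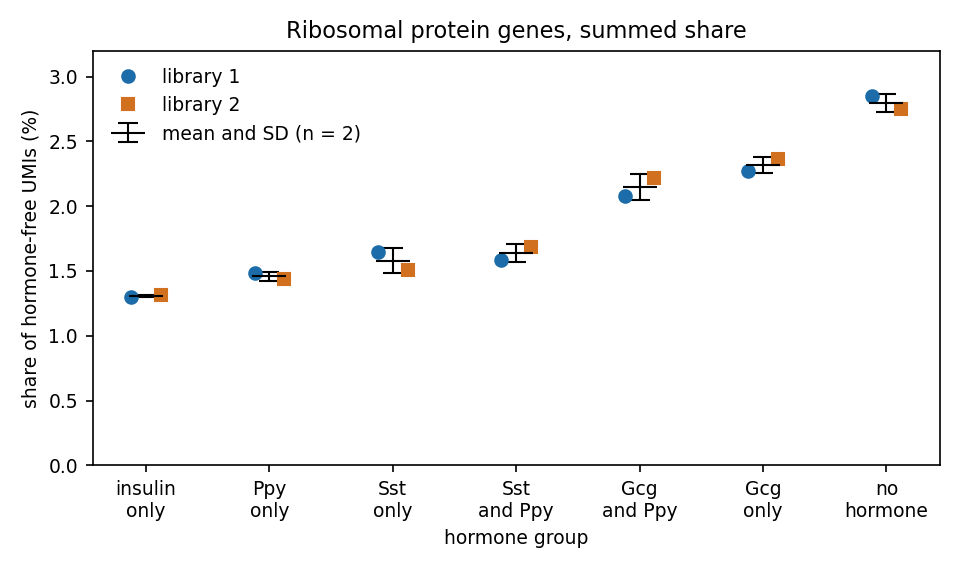
Share of hormone-free UMIs held by the 84 members (y axis, percent) in each hormone group (x axis), with library 1 as circles, library 2 as squares, and a bar for the mean ± SD of the 2 libraries. Insulin only cells lie lowest at 1.30% and 1.31%, Gcg only cells reach 2.27% and 2.36%, and cells with no hormone lie highest.

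Medians over cells differed in the same direction between insulin only and Gcg only cells, but single cells overlapped. The 90th percentile of insulin only cells was 1.83% in library 1 and 1.97% in library 2. The 10th percentile of Gcg only cells was lower, at 1.56% and 1.63%. The median insulin only cell gave 1.22% of its hormone-free UMIs to the members in library 1 and 1.35% in library 2, and the median Gcg only cell gave 2.23% and 2.33%. As UMIs per cell rather than a share, the median was 153.5 and 135.0 in insulin only cells and 281.0 and 323.5 in Gcg only cells. Depth moved in the same direction but less, with a median of 11753 and 10187.5 hormone-free UMIs in insulin only cells against 12693 and 14559.5 in Gcg only cells. Ppy only cells were deeper still, at 18605 and 20180, with a share near that of insulin only cells. The part of depth in the difference between groups was not tested.

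Within the insulin only group the share varied with the amount of hormone. Spearman's rho between a cell's ribosomal protein share and its insulin share of UMIs was 0.49 over the 182 cells of library 1 and 0.55 over the 190 cells of library 2. The rho with the cell's hormone-free depth was -0.28 and -0.45. Insulin UMIs and hormone-free UMIs divide the same captured RNA, so these 2 relations are not separate. In Gcg only cells the rho with the Gcg share was 0.25 and 0.14, and with depth -0.0060 and -0.060. They describe cells of 1 library that share its preparation, and no p is given.

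The fit of single genes was made with edgeR's quasi-likelihood test on UMIs summed per group and library, over 14955 genes, of which 80 were members. The 4 members left out had at most 41 UMIs in all cells. Between insulin only and Gcg only cells, 61 members were lower and 1 was higher in insulin only at a Benjamini-Hochberg adjusted p under 0.05, beside 12.2% lower and 12.8% higher among all genes tested. The median log2 fold change of the 80 members was -0.87, an expression 1.83 times as high in Gcg only cells, while that of all genes was 0. For 75 of the 80 members both insulin only values lay below both Gcg only values. The same count was not made over all genes, so it is given as a description only. The median was -0.79 in library 1 alone and -0.90 in library 2 alone. Both subunits took part, with 35 of 45 large subunit members lower at a median of -0.86 and 26 of 35 small subunit members lower at a median of -0.87.

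**Figure D2:**
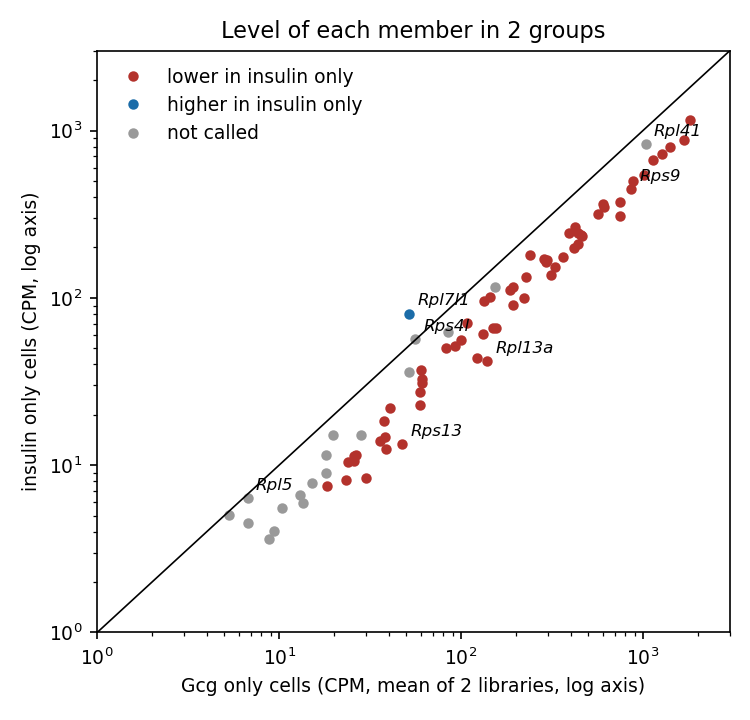
Level of each of the 80 tested members in insulin only cells (y axis) against Gcg only cells (x axis), in CPM (counts per 1000000 hormone-free UMIs), as the mean of 2 libraries on log axes with the line of equal level. Nearly every member lies below the line, 61 of them called lower in insulin only cells, and Rpl7l1 is the called member above it.

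Levels are given as counts per 1000000 hormone-free UMIs of the group (CPM) and are not compared between genes here. Members differ in how much of their UMIs lies in rows of copies that share part of their sequence, as described below. Rpl17, a large subunit protein, had the largest fall, with 5.91 and 10.9 CPM in insulin only cells against 27.0 and 33.3 CPM in Gcg only cells in libraries 1 and 2. The fitted log2 fold change, given here and for all genes with its standard error, was -1.81 ± 0.36 (edgeR adjusted p = 0.0014). Rps13, of the small subunit, stood at 12.9 and 13.9 CPM against 45.7 and 49.6 CPM, a log2 fold change of -1.79 ± 0.25 (edgeR adjusted p = 6.3e-05). For both genes the groups did not overlap, although the insulin only values of Rpl17 were far apart between libraries.

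Rpl13a, a large subunit protein also known as a regulator of translation in inflammation, had 43.2 and 40.8 CPM in insulin only cells and 131 and 146 CPM in Gcg only cells. The log2 fold change was -1.69 ± 0.17 (edgeR adjusted p = 3.6e-06). Rpl38, known for its role in translating Hox mRNAs, had 12.2 and 12.6 CPM against 38.9 and 38.2 CPM, a log2 fold change of -1.60 ± 0.22 (edgeR adjusted p = 7.1e-05). All 4 of these genes have most of their matching UMIs in rows of copies that share part of their sequence, as described below. Their falls are larger than the median of the members.

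Rpl7l1 went the other way. It had 84.1 and 77.1 CPM in insulin only cells and 53.3 and 50.6 CPM in Gcg only cells, a log2 fold change of 0.67 ± 0.16 (edgeR adjusted p = 0.0070). With the hormone genes kept in the total and no TMM (edgeR's scaling factors between sums) it did not pass (0.32, edgeR adjusted p = 0.17). Rpl7l1 shares 0.40% of its sequence stretches with any other gene. It was also lower in Gcg only than in Sst only cells, which had 110 and 70.4 CPM (log2 fold change -0.71 ± 0.21, edgeR adjusted p = 0.035), the only member called lower there. This call was lost with no filter on low counts and with cells grouped at a hormone limit of 0.5% (edgeR adjusted p = 0.12 and 0.12). It was also lost without cells holding markers of other cell types, with 23 cells in each sum and with the UMIs of copies added (edgeR adjusted p = 0.055, 0.46 and 0.075).

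Among members whose row shares no 70-base stretch with another gene, the same difference was seen. These genes were chosen for that property after the values were known. Rpl4, a large subunit protein and the member with the most UMIs, had 1207 and 1110 CPM in insulin only cells and 1751 and 1873 CPM in Gcg only cells, a log2 fold change of -0.61 ± 0.096 (edgeR adjusted p = 0.00023). Rps20, of the small subunit, had 450 and 549 CPM against 833 and 919 CPM, a log2 fold change of -0.77 ± 0.12 (edgeR adjusted p = 0.00015). Neither gene overlapped between the groups.

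Of the 18 members that did not pass, 17 had a negative log2 fold change, and their median was 337 UMIs in all cells against 3802.5 for those that passed. Rps6, the ribosomal protein phosphorylated downstream of mTOR, had 10.3 and 7.58 CPM in insulin only cells and 16.4 and 19.8 CPM in Gcg only cells, with a log2 fold change of -0.97 ± 0.35 (edgeR adjusted p = 0.055). Rps27a, which is made as a fusion with ubiquitin, had 9.97 and 3.37 CPM against 15.6 and 10.3 CPM (log2 fold change -0.89 ± 0.45, edgeR adjusted p = 0.17). Rpl41, whose product is among the shortest known proteins, was deep enough to measure, at 803 and 863 CPM against 1023 and 1048 CPM, with a log2 fold change of -0.28 ± 0.11 (edgeR adjusted p = 0.094).

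Rpl5 and Rpl11 bind the p53 regulator Mdm2 together with 5S RNA. Rpl11 fell, with 34.3 and 31.2 CPM in insulin only cells against 57.1 and 64.5 CPM in Gcg only cells (log2 fold change -0.86 ± 0.19, edgeR adjusted p = 0.0033). Rpl5 had 8.12 and 4.63 CPM against 4.57 and 8.85 CPM, with overlapping groups and a log2 fold change of -0.036 ± 0.50 (edgeR adjusted p = 0.98), on a row with only 172 UMIs in all. Rps19, mutated in Diamond-Blackfan anaemia, fell from 415 and 436 CPM in Gcg only cells to 260 and 274 CPM in insulin only cells (log2 fold change -0.64 ± 0.11, edgeR adjusted p = 0.00058).

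Against the other hormone groups, Gcg only cells again had the higher levels. Between Gcg only and Sst only cells 48 members were higher and 1 lower, beside 6.0% higher and 6.31% lower of all genes, with a median log2 fold change of 0.74. Between Gcg only and Ppy only cells 43 were higher and 0 lower, beside 4.72% and 4.77%, with a median of 0.70. At an unadjusted p under 0.05 there were 60 and 61 members in these 2 comparisons, a count not made over all genes. DESeq2 called 39 members higher and 1 lower against Sst only cells, beside 563 and 918 of all 14955 genes. Against Ppy only cells it called 38 higher and 0 lower, beside 495 and 523. These comparisons share the Gcg only sums with the first, so they are not independent of it. Among the 4 groups with 1 hormone, 72 members had their highest level in Gcg only cells in library 1 and 71 in library 2. In insulin only cells 53 and 41 had their lowest level. The share of all genes with that order was not counted.

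Among the members called, the largest differences from Sst only cells were those of Rpl28, Rpl35a, Rps13 and Rpl22l1. Rpl28, a large subunit protein, rests on 1 UMI in each library of Sst only cells, against 51 and 49 UMIs in Gcg only cells (log2 fold change 2.87 ± 0.71, edgeR adjusted p = 0.014), and did not pass by DESeq2 or with a hormone limit of 0.5% (adjusted p = 0.11 and 0.18). Rpl35a, mutated in Diamond-Blackfan anaemia, had 13.2 and 6.70 CPM in Sst only cells and 36.2 and 39.0 CPM in Gcg only cells (log2 fold change 1.95 ± 0.41, edgeR adjusted p = 0.0043). Rpl22l1 had 19.8 and 26.8 CPM against 61.7 and 56.7 CPM (log2 fold change 1.50 ± 0.29, edgeR adjusted p = 0.0026). In each the groups did not overlap, on few UMIs in Sst only cells.

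Against Ppy only cells the leading members among those called were Rpl32l, Rps3a2, Rps24 and Rpl19. Rps24, of the small subunit, had 231 and 233 CPM in Ppy only cells and 434 and 477 CPM in Gcg only cells, a log2 fold change of 0.99 ± 0.14 (edgeR adjusted p = 0.00023). Rpl19 had 28.4 and 34.0 CPM against 56.0 and 66.6 CPM, a log2 fold change of 0.98 ± 0.21 (edgeR adjusted p = 0.0080). Rps3a2 and Rpl32l are rows annotated as pseudogenes, with log2 fold changes of 1.00 ± 0.14 and 1.52 ± 0.46 (edgeR adjusted p = 0.00038 and 0.049). Rpl32l did not pass in 6 alternatives, at 0.050 to 0.13.

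**Figure D3:**
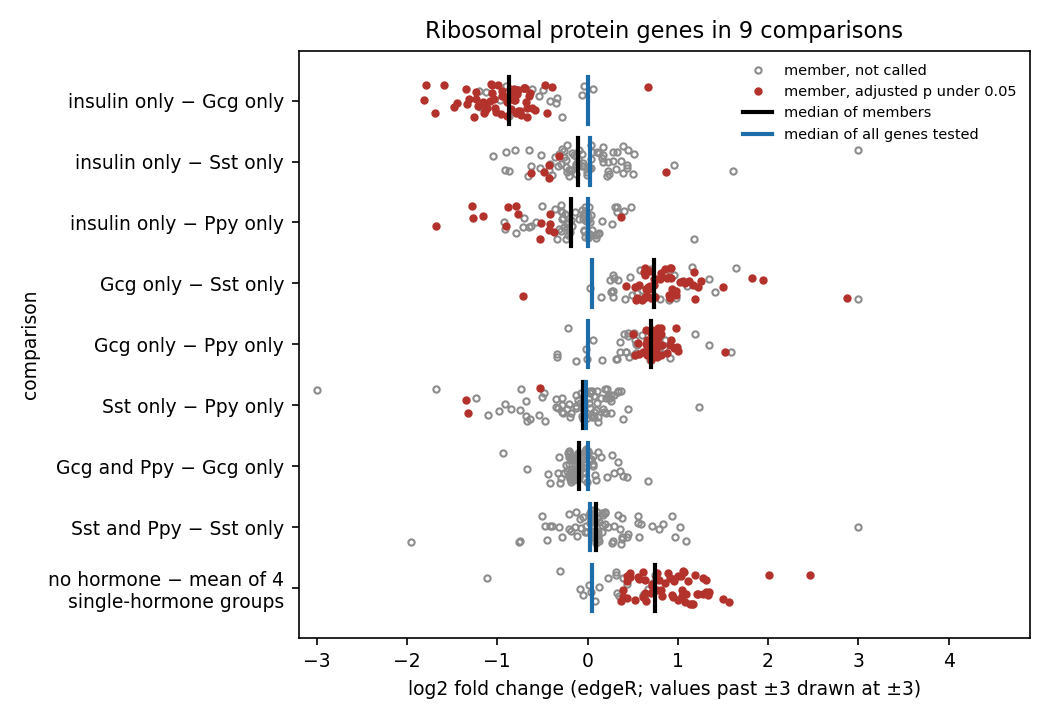
Log2 fold change (x axis, edgeR) of each tested member in the 9 comparisons (y axis), with filled points for an adjusted p under 0.05, a black bar for the median of the members and a blue bar for that of all genes tested. The members shift as a group in the 3 comparisons with Gcg only cells and 1 other hormone, and in cells with no hormone, and lie nearer the median of all genes in the others.

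Between insulin only, Sst only and Ppy only cells the medians of the members were nearer 0 in this fit than against Gcg only cells. Between insulin only and Sst only cells 1 member was higher and 5 were lower, beside 7.48% and 6.97% of all genes, and the median was -0.11, from -0.20 in library 1 and 0.03 in library 2 alone. A share of 5 in 80 lower is no larger than the background. Between insulin only and Ppy only cells 1 was higher and 14 were lower, beside 10.3% and 9.87%, and the median was -0.19, with 56 of 80 members negative. The 14 lower members are a larger share than among all genes. With the hormone genes kept and no TMM, insulin only against Sst only cells had 47 members lower, beside 4832 of all 15117 genes tested. The median of the members was -0.84, where the median of all genes was -0.69. Insulin only against Ppy only cells then had 25 members lower, beside 1972 of all genes. The medians were -0.34 for the members and -0.12 for all genes. Between Sst only and Ppy only cells 0 were higher and 3 were lower, beside 4.67% and 4.41%. DESeq2 called 2 higher and 1 lower, beside 671 and 412 of all genes. The median by edgeR was -0.05. The direction of this last median depended on the scaling: it was 0.06 with no TMM factors and 0.54 with the hormone genes kept, where that of all genes was 0.53, and in the single libraries it was 0.0053 and -0.15.

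Single members stood out among these 3 groups. Rps9, of the small subunit, had 481 and 411 CPM in insulin only cells and 769 and 771 CPM in Sst only cells (log2 fold change -0.63 ± 0.11, edgeR adjusted p = 0.0012). Rpl10, a large subunit protein encoded on the X chromosome, had 25.5 and 20.2 CPM in insulin only, 39.6 and 23.5 CPM in Sst only and 79.1 and 74.5 CPM in Ppy only cells. Its log2 fold change between insulin only and Ppy only was -1.68 ± 0.21 (edgeR adjusted p = 3.7e-05), the largest fall of a member there. With the UMIs of its copies added it was -0.25 ± 0.099 (edgeR adjusted p = 0.091), which did not pass. How the counting divided reads between Rpl10 and its copies was not tested.

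Rpl41 was the member higher in insulin only than in Ppy only cells, with 803 and 863 CPM against 647 and 695 CPM (log2 fold change 0.37 ± 0.12, edgeR adjusted p = 0.035). This call was lost with no TMM, with the hormone genes kept, with a hormone limit of 0.5% and with 23 cells in each sum (edgeR adjusted p = 0.071, 0.26, 0.069 and 0.22). Rps18 was lower in Sst only cells, at 167 and 151 CPM, than in Ppy only cells, at 222 and 206 CPM (log2 fold change -0.52 ± 0.13, edgeR adjusted p = 0.022), but the direction of Rps18 turned with the hormone genes kept (0.063, edgeR adjusted p = 0.80). It also did not pass with no TMM, by DESeq2, with a hormone limit of 0.5% or with 23 cells in each sum (adjusted p = 0.065, 0.11, 0.32 and 0.23).

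Sst only cells are the smallest group, and library 1 of it held more RNA of other cell types. The summed level of 10 endothelial markers was 835 CPM in its library 1 and 50.3 CPM in library 2, and that of 14 leukocyte markers was 207 and 20.1 CPM. In Gcg only cells the leukocyte markers stood at 19.0 and 19.5 CPM, and in insulin only cells at 155 and 208 CPM. Without the 19 hormone cells in which these markers reached 0.1% of UMIs, the members' share was 1.20% and 1.30% in insulin only cells and 2.27% and 2.38% in Gcg only cells, so the difference was as large without them. Without those cells 64 members were lower and 1 higher between insulin only and Gcg only cells, beside 13.0% and 13.3% of all genes. Between Gcg only and Sst only cells 49 were higher and 0 lower, beside 6.13% and 6.68%. Between insulin only and Sst only cells 10 were lower and 1 higher, beside 7.23% and 7.77%, and between insulin only and Ppy only cells 22 were lower and 1 higher, beside 10.5% and 11.1%. The share of members called lower was then above that of all genes in both.

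No member passed the test between cells with both Gcg and Ppy and Gcg only cells. Of the 80 members 0 were called by edgeR, beside 0.0401% of all genes, 3 had an unadjusted p under 0.05, and DESeq2 called 0, with a median of -0.09. The same held for cells with Sst and Ppy against Sst only cells, where 0 were called beside 0.0134%, 7 had an unadjusted p under 0.05, DESeq2 called 0 and the median was 0.10, from 0.02 in library 1 and 0.31 in library 2 alone. With so few genes called in all, these 2 tests do not show that the members are equal.

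In cells with no hormone 60 members were higher than in the mean of the 4 groups with 1 hormone and 0 were lower, beside 33.4% and 26.3% of all genes, with a median of 0.75. This group holds several cell types, and all 10 endothelial and all 14 leukocyte markers were highest in it in both libraries. Split by the marker list that reached 0.5% of UMIs, a limit set after the values were seen, 32 and 36 cells with leukocyte markers had a share of 4.22% and 4.29%. The 27 and 33 cells with endothelial markers had 1.58% and 2.02%, and the 8 and 10 cells with ductal markers had 3.54% and 3.39%. The 7 and 2 cells with stellate markers had 1.55% and 1.99%, 2 cells with acinar markers in library 1 had 1.46%, and the 15 and 11 cells on no list had 3.31% and 1.94%. The leukocyte cells thus held more than the Gcg only cells and the endothelial cells less, while 40 of the 183 cells lay between 0.25% and 1.0% of markers, near the limit.

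Rpl22, which is not essential in most cells but is needed by developing T cells, had 590 and 542 CPM with no hormone against 279 and 304 CPM in Gcg only cells (log2 fold change against the mean of 4 groups 1.57 ± 0.094, edgeR adjusted p = 1.9e-09). Rps29 passed too, but with 0 UMIs in Sst only cells, which allows up to 6.59 and 10.1 CPM (3 counts per library, counting error only), so no fold is given. It had 8.17 and 11.1 CPM with no hormone and 4.95 and 8.50 CPM in Gcg only cells, which overlap.

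A few ribosomal proteins have a second gene that encodes a close relative, and the ratio of the pair within a library does not depend on scaling. Only each gene's own row was counted, without the rows of its copies described below. The Rpl7 row held 35.5% of the UMIs of Rpl7 and its copies, against 94.2% for Rpl7l1. For Rps4x, Rpl22l1 and Rpl22 it was 63.0%, 46.5% and 91.4%. Ratios with copies added were not made, so a ratio is not the balance of all transcripts of a pair. The ratio of Rpl7l1 to Rpl7 UMIs was 1.27 and 1.18 in insulin only cells and 0.330 and 0.334 in Gcg only cells. Rpl7 itself was lower in insulin only cells (66.4 and 65.3 CPM against 161 and 152 CPM, log2 fold change -1.21 ± 0.18, edgeR adjusted p = 0.00015), while Rpl7l1 was higher, so both genes moved the ratio the same way. In Ppy only cells it was 0.581 and 0.824. In Sst only cells it was 1.61 and 0.636, on 31 and 33 Rpl7 UMIs, which places no order on that group.

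Rps4l, a row annotated as a transcribed pseudogene on chromosome 6, had 0.247 and 0.241 UMIs for each UMI of the X-linked Rps4x in insulin only cells, 0.129 and 0.111 in Gcg only cells and 0.0700 and 0.0620 in cells with no hormone. Its own level hardly differed between insulin only (54.3 and 59.4 CPM) and Gcg only cells (59.4 and 52.1 CPM, log2 fold change 0.063 ± 0.17, edgeR adjusted p = 0.84). It was higher in insulin only than in Sst only cells (30.8 and 40.2 CPM, log2 fold change 0.87 ± 0.26, edgeR adjusted p = 0.036). That call was lost with no TMM, with the hormone genes kept, by DESeq2, with a hormone limit of 3% and with 23 cells in each sum (adjusted p = 0.089, 0.74, 0.17, 0.22 and 0.62). Rps4x fell in insulin only cells, from 459 and 468 CPM in Gcg only cells to 220 and 247 CPM (log2 fold change -0.95 ± 0.12, edgeR adjusted p = 3.1e-05).

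The ratio of Rpl22l1 to Rpl22, a pair known to regulate each other, was 0.159 and 0.177 in insulin only, 0.221 and 0.186 in Gcg only, 0.10 and 0.14 in Sst only and 0.327 and 0.289 in Ppy only cells. In cells with no hormone it was 0.0800 and 0.0845. The Ppy only values lay above and the no hormone values below those of every other group, and the insulin only and Gcg only values were closer to each other. Both genes of the pair were lower in insulin only than in Gcg only cells, Rpl22l1 by a log2 fold change of -1.07 ± 0.19 and Rpl22 by -0.79 ± 0.13 (edgeR adjusted p = 0.00072 and 0.00028). Rps27l, a p53 target, had 10.3 and 6.84 UMIs for each Rps27 UMI in insulin only cells and 8.24 and 6.79 in Gcg only cells, which overlap. Rps27l itself fell in insulin only cells (-0.45 ± 0.15, edgeR adjusted p = 0.042, but 0.061 to 0.16 under 5 alternatives), and Rps27 had -0.62 ± 0.30 (edgeR adjusted p = 0.16). Rpl39l and Rpl3l, known from testis and muscle, had 2 and 4 UMIs in all cells.

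**Figure D4:**
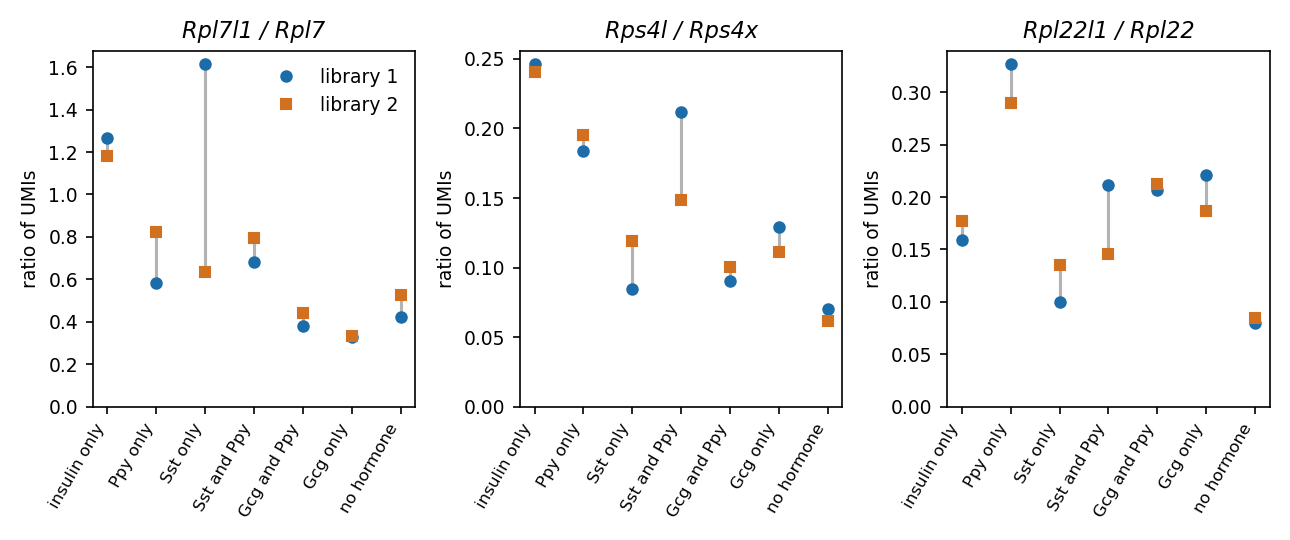
Ratio of UMIs of 3 paralogs to those of the related gene (y axis) in each hormone group (x axis), with library 1 as circles and library 2 as squares joined by a line. Only the genes' own rows are counted, without their copies. The Rpl7l1 and Rps4l ratios are higher in insulin only than in Gcg only cells in both libraries, and the Rpl22l1 ratio is highest in Ppy only cells.

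Ribosomal protein genes have many processed copies in the genome, and the rows of these copies together held slightly more UMIs than the genes. A gene outside the members was listed as a copy if it was annotated as a pseudogene or had -ps in its name. It also had to share a 70-base stretch with the last 500 bases of a protein-coding member's transcript in GENCODE M21. Each copy was linked only to the member with which it shared the most stretches. The 5 members annotated as pseudogenes could have no copies by this rule. Of the 84 members 70 were linked to copies. There were 682 copies, of which 633 had a row, with 491109 UMIs against 472729 for all members. For 40 members the copies held more UMIs than the gene. Rpl5 had 172 UMIs in its own row and 18034 in its copies, 16933 of them in Gm15500. Rpl13a had 2304 UMIs against 25063 in its copy Gm11478, and Rps27a had 252 against 9649. A row of a copy can also hold reads of a gene it lies in.

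Of the 64 members whose copy with the most UMIs was tested, 56 of these copies were lower and 0 higher in insulin only than in Gcg only cells, with a median log2 fold change of -0.84, beside 12.2% lower of all genes. Gm15500 had a log2 fold change of -1.09 ± 0.13 (edgeR adjusted p = 1.4e-05), where Rpl5 itself had -0.036. With the UMIs of the copies added to each gene, 74 of 81 tested members were lower and 1 was higher. Of the 14806 genes in that fit, 1741 were lower and 1880 higher. Rpl5 then had -1.09 ± 0.13 (edgeR adjusted p = 2.1e-05) and Rps6 -0.66 ± 0.16 (edgeR adjusted p = 0.0064). The falls of Rps13 and Rpl38 became -0.92 ± 0.12 and -0.74 ± 0.18 (edgeR adjusted p = 3.5e-05 and 0.0078). The summed share became 2.64% and 2.66% in insulin only cells and 4.70% and 4.88% in Gcg only cells. Among the 24 tested members that share under 20% of their stretches, 19 were lower and 1 was higher at a median of -0.78. Among the other 56 these were 42 and 0 at a median of -0.90. This split does not separate members by the UMIs in their copies. Rpl23, with 10.9% of its stretches shared, had 3787 UMIs against 16394 in its copy, and Rps21 had 24347 against 26967. Rps16 was linked to no copy, although the row Rps16-ps2 held 9625 UMIs.

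**Figure D5:**
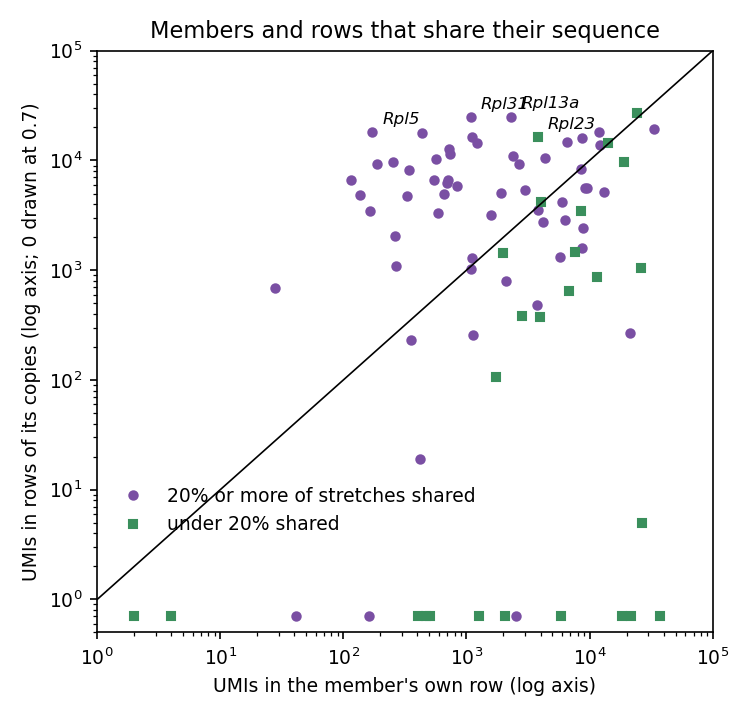
UMIs in rows of the copies of each member (y axis, log, with 0 drawn at 0.7) against UMIs in the member's own row (x axis, log), with the line of equal counts. Members sharing 20% or more of their stretches are circles and the others are squares, and Rpl5, Rpl31, Rpl13a and Rpl23 lie far above the line.

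Other genes of translation were counted in the same fit. Of the 7 other ribosomal proteins 5 were lower and 0 higher in insulin only than in Gcg only cells, at a median of -0.92. Among all genes 12.2% were lower and 12.8% higher. Rplp0, of the ribosomal stalk, had 608 and 582 CPM against 1142 and 1159 CPM (log2 fold change -0.92 ± 0.096, edgeR adjusted p = 4.3e-06). Rplp1, Rplp2, Rack1 and Fau also fell, with log2 fold changes of -0.57 ± 0.13, -0.92 ± 0.13, -0.92 ± 0.13 and -1.73 ± 0.36 (edgeR adjusted p = 0.0040, 6.1e-05, 9.6e-05 and 0.0022).

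A list of 12 genes of elongation and related steps had 6 lower and 1 higher, at a median of -0.38. The shares of all genes were 12.2% lower and 12.8% higher. Besides elongation factors the list holds the release factors Etf1 and Gspt1, the kinase Eef2k and Tpt1. Eef1a1, which brings tRNA to the ribosome, had 420 and 379 CPM in insulin only cells and 825 and 862 CPM in Gcg only cells (log2 fold change -1.04 ± 0.12, edgeR adjusted p = 1.0e-05). Its relative Eef1a2, known from neurons and muscle, had 1.85 and 0.842 CPM against 46.9 and 52.4 CPM (-5.07 ± 0.75, edgeR adjusted p = 0.00012). The insulin only values of Eef1a2 rest on few UMIs, so the size of this fall is uncertain. Tpt1 and Eef1b2 fell as well (-1.39 ± 0.16 and -1.15 ± 0.099, edgeR adjusted p = 1.4e-05 and 5.7e-07).

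Of 37 initiation factors 9 were higher and 6 lower, beside 12.8% higher and 12.2% lower of all genes, at a median of 0.11. Eif3e, Eif3f, Eif3h and Eif4b were among the lower ones, while Eif5b and Eif2b5 were higher (0.79 ± 0.15 and 0.97 ± 0.18, edgeR adjusted p = 0.00082 and 0.00095). Of 45 ribosome biogenesis genes 5 were higher and 3 lower, at a median of 0.11. Among the lower were Npm1 (-0.78 ± 0.15, edgeR adjusted p = 0.0013) and Fbl (-1.26 ± 0.43, edgeR adjusted p = 0.044). Of 74 mitochondrial ribosomal proteins 9 were higher and 0 lower, at a median of 0.15. As a share of the list, the higher and lower calls of the biogenesis and mitochondrial genes were no larger than among all genes. The medians of these 3 lists were above 0, where that of the cytosolic members was -0.87.

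Of all genes tested, 12.2% were lower and 12.8% higher in insulin only than in Gcg only cells. Of 20 genes outside the members listed for mRNAs with a TOP motif 16 were lower and 1 higher, at a median of -0.82. This list holds 6 of the other ribosomal proteins, 6 genes of the elongation list and 5 initiation factors counted above, so it is no separate set. Among the members, 17 of the 21 genes with a run of at least 8 pyrimidines at an annotated start were lower, at a median of -1.01, and 27 of 38 tested genes with a shorter run, at a median of -0.80.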

How the data were processed

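The authors deposited 1 table of whole-number counts (deduplicated UMIs) per library. Per the study's methods, reads were aligned to exons of GRCm38, deduplicated and assigned to genes, with cell barcodes chosen by a depth knee; UMI-tools and Seurat are named in the labels. The treatment of reads that match several genes was not given in the sources used here, and it bears directly on genes with near-identical copies.

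The members and gene lists were chosen with earlier results of these data known. Hormone UMIs were removed, and counts were summed per hormone group and library for groups with at least 10 cells in each library. Sums of 7 groups were fitted together with edgeR 4.0.16 in R 4.3.3 (TMM, filterByExpr, quasi-likelihood test, 7 residual degrees of freedom), with Benjamini-Hochberg adjustment over all 14955 genes tested. DESeq2 1.42.0 was an alternative. The fit was also run on simulated counts, drawn with a smaller spread than that of these data and with most genes equal between groups. That run does not measure the error rate of the calls given here. Named genes were, per comparison, the 4 called members with the largest change in each direction, plus paralog pairs, Rps6, Rpl5, Rpl11, Rps27a, Rps19 and up to 4 genes of each other list. Scrublet in scanpy 1.11.5 called 16 doublets (1.08%), which were kept. Libraries were not paired beyond their number: deviations of library 1 correlated between groups at -0.030 to 0.080 (median 0.017) over 21 pairs of groups. RefSeq start sequences (GRCm38.p6) and GENCODE M21 gave promoters and copies. Intervals for a count of 0 cover counting error only. Some genes that the naming rule covers are not reported here.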

Additional observations from a re-analysis of the deposited data

Results flagged for a closer look

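Rows named as ribosomal protein pseudogenes (-ps) belong to no comparison of the members, yet 252 such rows held 227983 UMIs, of which 107371 were in library 1 and 120612 in library 2. The members' own rows held 221072 and 251657. The row with the most was Rpl31-ps8 with 22924 UMIs, beside 1079 in Rpl31. With these rows added, the share of hormone-free UMIs was 1.94% and 1.95% in insulin only cells and 3.38% and 3.50% in Gcg only cells. How the counting divided reads between genes and copies was not tested.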

How the results depend on the processing

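The number of members called moved by over 1.5 times as follows, and elsewhere stayed within it. With 23 cells in each sum the calls were 28 for insulin only against Gcg only, 0 for insulin only against Sst only, 1 for insulin only against Ppy only, 22 for Gcg only against Sst only, 13 for Gcg only against Ppy only and 0 for Sst only against Ppy only, from fewer cells and 67 tested members by construction. The 28 calls were lower in insulin only cells, beside 463 lower of 9852 genes tested. The 1 call was lower too, beside 392. The 22 and 13 were higher in Gcg only cells, beside 361 and 179. Rpl17, Rps13, Rpl38, Rpl4, Rpl11, Rps19, Rpl22, Rpl22l1 and Rpl7l1 then did not pass between insulin only and Gcg only cells. For the 2 comparisons at 0 calls by edgeR there, 4 and 6 members had an unadjusted p under 0.05. Of all genes, 372 were called higher and 379 lower in the first of these, and 351 and 294 in the second. With no TMM 13 members were lower and 0 higher in insulin only than in Sst only cells, beside 1361 and 758 of 14955 genes. Between Sst only and Ppy only cells 3 were higher and 2 lower, beside 837 and 495. The main fit had 0 higher and 3 lower there. With hormones kept and no TMM the calls were 47 and 34 for the same comparisons. They were 25 for insulin only against Ppy only and 17 for Gcg only against Sst only. Of all 15117 genes, 4832 were then lower in insulin only than in Sst only cells, and 1972 lower than in Ppy only cells. The 34 members were all higher in Sst only than in Ppy only cells, beside 3282 of all genes. Between Gcg only and Sst only cells 16 members were higher and 1 lower, beside 406 and 2114 of all genes. A hormone limit of 0.5% gave 9 for insulin only against Ppy only, all lower, beside 1224 lower of 14996 genes. It gave 32 for Gcg only against Sst only, all higher, beside 616 higher. Leaving out cells with other-cell markers gave 11 for insulin only against Sst only and 23 against Ppy only, with their directions given above. Adding copies, chosen after seeing the data, gave 12 against Sst only. Of these 10 were lower and 2 higher, beside 1042 and 1108 of 14806 genes. The cause was not tested.

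With hormones kept, the share relative to insulin only became 2.20 in Gcg only, 1.80 in Sst only, 1.19 in Ppy only and 3.53 in no hormone cells. Without cells with other-cell markers it was 1.86 in Gcg only, 1.16 in Ppy only and 2.24 in no hormone cells. The median over cells gave 1.08 in Ppy only and 1.99 in no hormone cells. Runs of at least 5 and 10 pyrimidines were at 42.5% and 21.9% of member starts. The replicate block gave 62, 5, 15, 48, 42, 3, 0, 0 and 61 calls in the 9 comparisons, in the order of the plot of log2 fold changes. With 1 library left out no call could be made, because no residual spread remained.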
